A study of Mus musculus with 12 samples.

Results

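Methylation was followed over 10 genes of the brain vasculature in bisulfite sequencing data from mouse cortex: Pecam1, Flt1, Kdr, Tek, Cdh5, Vwf, Esam, Abcb1a, Pdgfrb and Slco1a4. They were listed by name as markers of endothelial cells and of the cells that wrap small vessels, and all 10 of 10 were found among the 23882 genes of the deposited tables. The measure was non-CG methylation (mCH), the share of cytosines outside CG pairs that were read as methylated over a gene, as a percent of all non-CG calls there. All 10 had at least 500 calls in each of the 12 libraries and were among the 19826 genes tested. The 4 groups compared were all C57BL/6 cortex: wild type (WT) at postnatal day 40 (P40, 4 libraries), miR29 KO at P40 (4 libraries), WT at 4 months (2 libraries) and Dnmt3a mi5 at 4 months (2 libraries). The sample titles tie the mi5 mice to miR29 and Dnmt3a. The labels name no driver, deleted locus or zygosity for either mutant, and they do not say whether each library is 1 animal, so the p-values measure the spread between these libraries.

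Non-CG methylation is laid down mainly by the enzyme DNMT3A and builds up in neurons after birth, while most other cells of the body carry little of it. Brain endothelial cells line the capillaries and form the blood-brain barrier through tight junctions and transporters, and pericytes and smooth muscle cells cover them from outside. Genes of this programme are active in vessels and largely silent in neurons. MicroRNAs of the miR-29 family repress Dnmt3a by pairing of their seed with the messenger's 3′ end.

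The mature miR-29 sequences are shown because the family is what the P40 mutant lacks by its label. They were read from RefSeq (GRCm38.p6), 5′ to 3′, with the seed (bases 2 to 8) in capitals.
mmu-miR-29a-3p: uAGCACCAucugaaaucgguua
mmu-miR-29b-3p: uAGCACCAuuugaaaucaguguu
mmu-miR-29c-3p: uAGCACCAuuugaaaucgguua
The 3 share 1 seed.

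Libraries held between 399563492 and 732985426 non-CG calls over genes. Over the miR-29 gene rows, the WT libraries at P40 had 224, 137, 121 and 244 calls and the miR29 KO libraries 26, 69, 54 and 6, so by this sum over 4 rows every KO library was below every WT library but none was at 0. By single row, Mir29a and Mir29c did not overlap between the groups, while Mir29b-1 (32, 8, 21 and 23 calls in WT, 6, 22, 21 and 0 in KO) and Mir29b-2 did. The 4-month libraries had 151 and 200 calls (WT) and 129 and 106 (mi5), and the altered Dnmt3a sequence cannot be checked in tables of calls per gene. The level of the median tested gene lay between 1.21% and 1.44% in WT at P40, 1.63% and 2.39% in miR29 KO, 1.21% and 1.23% in WT at 4 months, and 2.20% and 2.22% in mi5. The lowest of the KO libraries by this level was replicate 4. No expression was measured, so the labelled tissue could not be checked against its markers. In whole cortex a level averages over all cell types, and a different mix of cells and a different methylation within cells cannot be told apart.

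mCH over all 10 vascular genes was higher in both mutants. In miR29 KO the rise was from 1.47-fold over Vwf to 1.79-fold over Esam, and in Dnmt3a mi5 from 1.60-fold over Abcb1a to 2.15-fold over Esam, as ratios of group means. The size was near that of the genome at large: the median log2 odds ratio of the 10 genes was 0.77 in miR29 KO and 0.89 in mi5, against 0.65 and 0.83 over all tested genes. All 10 passed the test in miR29 KO, where 76.5% of all tested genes rose and 0.0454% fell, and all 10 passed in mi5, where 58.8% rose (quasi-binomial model with limma's moderation, Benjamini-Hochberg adjustment over all tested genes, threshold 0.05). In miR29 KO the 4 mutant libraries lay above the 4 WT libraries for all 10 genes, as they did for 57.1% of all tested genes (all below for 0.0504%). In mi5 both libraries lay above both WT libraries for all 10, as for 86.2% of all genes.

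**Figure D1:**
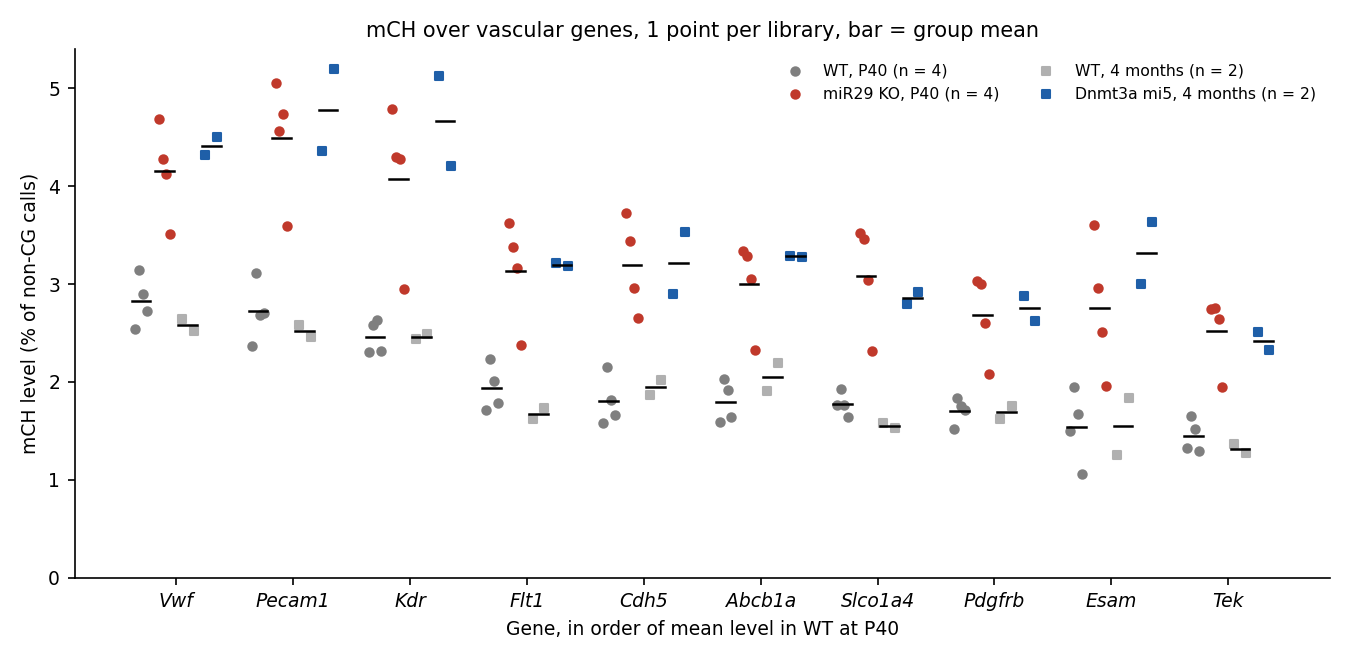
mCH level (percent of non-CG calls) of each vascular gene, 1 point per library, with a bar at the group mean; genes run from the highest to the lowest mean in WT at P40. Red (miR29 KO) and blue (Dnmt3a mi5) points lie above the grey WT points of their own age for every gene, and the lowest red point of each gene is miR29 KO replicate 4.

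Flt1, Kdr and Tek encode receptors that steer vessel growth and stability. Flt1 (VEGF receptor 1, often described as a decoy that limits VEGF signalling) stood at 1.72, 2.23, 2.01 and 1.79% in the 4 WT libraries at P40 and at 3.62, 3.37, 3.16 and 2.38% in miR29 KO. At 4 months it was 1.62 and 1.74% in WT and 3.22 and 3.18% in mi5. The gene overlaps Gm35383 in the RefSeq assembly (not analysed here). Neither pair of groups overlapped, and only miR29 KO replicate 4 came near the highest WT value. The log2 odds ratio was 0.72 ± 0.13 (SE) in miR29 KO (adjusted p = 8.2e-05) and 0.95 ± 0.25 in mi5 (adjusted p = 0.0049).

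Kdr (VEGF receptor 2, the main signalling receptor for VEGF in endothelium) was the most methylated of the 3 receptors. It read 2.31, 2.58, 2.63 and 2.32% in WT at P40 and 4.78, 4.30, 4.27 and 2.95% in miR29 KO. At 4 months it read 2.44 and 2.49% in WT and 5.13 and 4.21% in mi5. Kdr overlaps Gm32727 (not analysed here). The KO libraries spread widely (SD 0.788 points), with replicate 4 again the lowest, while the WT libraries of both ages shared 1 narrow range. The log2 odds ratios were 0.77 ± 0.13 (adjusted p = 6.4e-05) and 0.95 ± 0.22 (adjusted p = 0.0031).

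Tek (Tie2, the receptor for the angiopoietins) had the lowest mean of all 10 genes in each of the 4 groups, and in WT at P40 and at 4 months it lay near the median gene. It read 1.33, 1.65, 1.52 and 1.30% in WT at P40 and 2.74, 2.76, 2.65 and 1.95% in miR29 KO. At 4 months the values were 1.37 and 1.27% in WT against 2.51 and 2.33% in mi5. The values of 3 KO libraries clustered tightly and replicate 4 stood below them. The log2 odds ratios were 0.83 ± 0.13 (adjusted p = 5.8e-05) and 0.89 ± 0.25 (adjusted p = 0.0066).

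Pecam1, Cdh5 and Esam encode adhesion molecules at contacts between endothelial cells. Pecam1 (CD31, the standard endothelial surface marker) read 2.37, 3.12, 2.69 and 2.71% in WT at P40 and 5.06, 4.56, 4.74 and 3.59% in miR29 KO. The 4-month values were 2.58 and 2.46% in WT against 4.36 and 5.19% in mi5. It had the highest mean of the 10 genes in both mutants, and its groups did not overlap. Its log2 odds ratios were 0.76 ± 0.11 (adjusted p = 5.7e-05) and 0.96 ± 0.23 (adjusted p = 0.0035).

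Cdh5 (VE-cadherin, the adherens junction cadherin of endothelium) read 1.58, 2.15, 1.82 and 1.66% in WT at P40 and 3.73, 3.44, 2.96 and 2.65% in miR29 KO. In the older mice it read 1.86 and 2.02% in WT against 2.90 and 3.53% in mi5. The lowest KO value, 2.65%, was well clear of the highest WT value, 2.15%, and the 4-month groups did not overlap either. The log2 odds ratios were 0.85 ± 0.13 (adjusted p = 5.7e-05) and 0.76 ± 0.25 (adjusted p = 0.015). The gene overlaps Gm29682 in the current RefSeq assembly, and reads over the shared stretch cannot be assigned to either. Gm29682 rose alongside, from 2.25% to 3.47% at P40 and from 2.19% to 3.69% at 4 months as group means.

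Esam (an immunoglobulin-type adhesion molecule of endothelium and platelets) is the least covered gene of the set, with 3302 to 7874 calls a library. It read 1.499, 1.94, 1.68 and 1.06% in WT at P40 and 3.60, 2.96, 2.51 and 1.96% in miR29 KO. The lowest KO value and the highest WT value differ by less than the 95% Wilson interval of either, 1.67 to 2.29% and 1.65 to 2.29%, so the gap between the groups is not resolved for those 2 libraries. The 4-month values were 1.25 and 1.84% in WT against 2.997 and 3.63% in mi5. The fitted rises were the largest of the 10 and also the least precise, with log2 odds ratios of 0.85 ± 0.20 (adjusted p = 8.5e-04) and 1.12 ± 0.37 (adjusted p = 0.016).

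Vwf encodes von Willebrand factor, the clotting glycoprotein that endothelial cells store and secrete. It had the highest mCH of the set in WT, with 2.54, 3.15, 2.90 and 2.72% at P40 and 2.64 and 2.52% at 4 months. In miR29 KO it read 4.69, 4.28, 4.13 and 3.51%, and in mi5 4.31 and 4.50%. No mutant value fell within the WT range. Its log2 odds ratio in miR29 KO was the smallest of the 10, 0.58 ± 0.10 (adjusted p = 6.9e-05), and in mi5 it was 0.80 ± 0.19 (adjusted p = 0.0032).

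Abcb1a (P-glycoprotein, which pumps drugs from endothelium back into blood) and Slco1a4 (an organic anion transporter of the barrier) each have close relatives in the mouse genome, Abcb1b and the Slco1a family. Reads that map equally well to both could be split or lost, so their values are less certain. Abcb1a read 1.60, 2.03, 1.92 and 1.65% in WT at P40 and 3.33, 3.28, 3.05 and 2.33% in miR29 KO. At 4 months it read 1.91 and 2.19% in WT and 3.29 and 3.28% in mi5, the smallest gap between libraries of a group at that age. The log2 odds ratios were 0.77 ± 0.13 (adjusted p = 6.1e-05) and 0.70 ± 0.20 (adjusted p = 0.0074). Abcb1a overlaps Rundc3b and Gm31157 in the RefSeq assembly, of which the second was not analysed here. Rundc3b carried a lower level, with means of 0.963% in WT and 1.62% in miR29 KO at P40, and 0.925% in WT and 1.84% in mi5 at 4 months.

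Slco1a4 read 1.76, 1.93, 1.77 and 1.64% in WT at P40 against 3.52, 3.46, 3.04 and 2.31% in miR29 KO. At 4 months it read 1.58 and 1.53% in WT and 2.80 and 2.92% in mi5. Both mutants were clear of their WT libraries. The log2 odds ratios were 0.82 ± 0.13 (adjusted p = 5.8e-05) and 0.90 ± 0.22 (adjusted p = 0.0035).

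Pdgfrb, the receptor for PDGF-B, marks pericytes and other cells around the vessel and not the endothelium itself. It read 1.52, 1.84, 1.75 and 1.72% in WT at P40 against 3.04, 3.003, 2.61 and 2.08% in miR29 KO. In the older mice it read 1.63 and 1.76% in WT and 2.87 and 2.63% in mi5. Its rise was close to that of the endothelial genes, with log2 odds ratios of 0.68 ± 0.13 (adjusted p = 1.2e-04) and 0.71 ± 0.25 (adjusted p = 0.020).

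Counting error varied with the coverage of a gene. The half-width of the 95% Wilson interval over the 10 genes and 12 libraries ran from 0.0708 to 0.640 points, and it covers counting error only. At 4 months, with 2 libraries a group, the SD was below that half-width for some genes, as for Abcb1a in mi5 (SD 0.00688 points), so their close values there do not show a smaller spread. For the median tested gene, the variance of the calls between libraries of a group was 5.13 times what counting alone gives. Depth was lower at 4 months, where the median gene had 6848 to 8384 calls a library against 11864 to 14324 at P40. In mi5 the calls depend on both WT libraries: without WT replicate 1 only Kdr, Pecam1, Slco1a4 and Vwf passed the test, although every log2 odds ratio stayed positive. In 4 libraries, 1 in each group, there were few calls over Y-linked genes. Among the others, the median ratio of mutant to WT over the 10 genes was 1.72 at P40 (3 against 3) and 1.79 at 4 months (1 against 1), and between the low-coverage libraries it was 1.46 and 1.74 (1 against 1 each).

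Against the whole genome, the vascular genes started from higher mCH than most. In WT at P40 Vwf stood at the 96.7th percentile of all tested genes, Pecam1 at the 95.3rd, Kdr at the 91.2nd and Flt1 at the 75.0th, each as the mean over 4 libraries. Tek was the lowest, at the 55.6th percentile. Relative to the median gene of the same library, the levels ranged from 1.11-fold (Tek) to 2.16-fold (Vwf). Esam in WT replicate 4 was the only value of the 10 genes in any library below the median gene, at 0.869-fold.

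**Figure D2:**
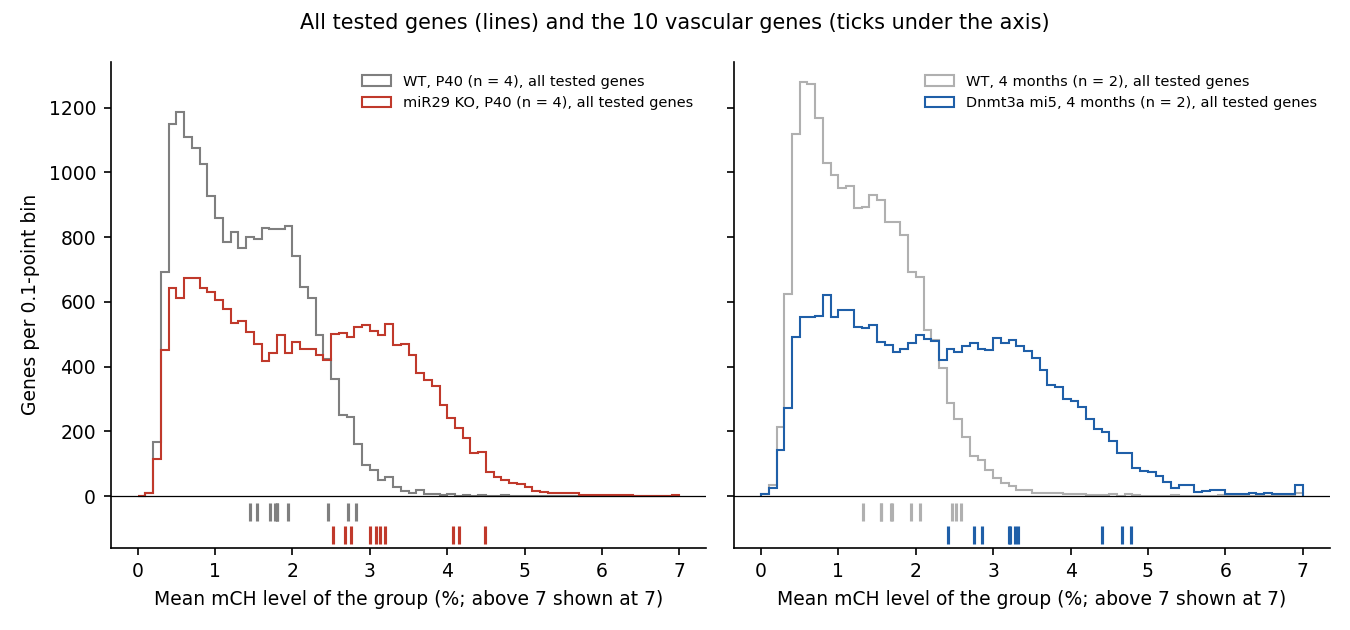
Number of tested genes by mean mCH level of the group (percent, bins of 0.1 points; levels above 7% are drawn at 7), at P40 on the left and at 4 months on the right, with the 10 vascular genes as ticks below the axis. The ticks of WT at P40 run from 1.45% (Tek) to 2.83% (Vwf) and those of miR29 KO from 2.52% (Tek) to 4.49% (Pecam1), in both cases in the right part of the distribution.

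The order of the genes differed between groups. Ranked by their mean in WT at P40, the genes ran Vwf, Pecam1, Kdr, Flt1, Cdh5, Abcb1a, Slco1a4, Pdgfrb, Esam, Tek. Each of the 9 neighbouring pairs was then compared in the other 8 libraries, which had no part in the ranking. Kdr exceeded Flt1 in 8 of 8 libraries, by 1.38-fold (two-sided exact sign-flip permutation test, p = 0.0078, the smallest that 8 libraries allow; adjusted over 9 pairs p = 0.070). No pair passed after adjustment. With 8 libraries 1 pair alone could not pass even where all agreed, so the test does not decide the order. Vwf exceeded Pecam1 in only 2 of 8 libraries. By group mean, Vwf, Pecam1 and Kdr were the highest 3 in each of the 4 groups, in differing order.

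A separate question was whether any vascular gene moved more or less than the median gene, which the same model answers with an offset for each library. Apart from this common shift, 0 of 10 genes were called in miR29 KO, where 1.04% of all tested genes were called above the shift and 3.55% below it. Of the 10, 4 had an unadjusted p under 0.05, as had 4092 of all 19826 tested genes. These 4 were Tek at 0.14 (adjusted p = 0.093), Cdh5 at 0.17 (0.14), Slco1a4 at 0.14 (0.16) and Vwf at -0.10 (0.11) on the log2 scale. Above the shift lay 8 of the 10, as did 42.4% of all tested genes, and Vwf and Pdgfrb lay below it. The median was 0.08 against -0.03 for all genes. The reference matters here: with centring on the mean gene in place of the median, Abcb1a, Cdh5, Flt1, Slco1a4 and Tek were called above the shift. In that setting the calls over all genes turned from 207 above and 704 below to 1614 above and 453 below. Vwf was instead called below the shift when miR29 KO replicate 4 was left out.

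In mi5, 0 of 10 genes were called apart from the common shift, against 0% of all genes above it and 0.0353% below it. Of the 10, only Abcb1a had an unadjusted p under 0.05, at -0.16 ± 0.08 (adjusted p = 0.54), as had 1814 of all 19826 tested genes. The spread of levels relative to the median gene differed between genes. Esam ran from 0.869 in WT replicate 4 at P40 to 1.65 in mi5 replicate 2. Abcb1a ran from 1.31 in WT replicate 1 at P40 to 1.81 in WT replicate 2 at 4 months. Vwf varied less. It was 2.16 ± 0.06 times the median gene in WT at P40 (SD, n = 4) and 2.01 ± 0.10 in miR29 KO (n = 4). Its means at 4 months were 2.12 in WT and 1.996 in mi5. Tek was 1.11 ± 0.03 and 1.22 ± 0.06 times the median gene at P40. The groups nearly touched, with its highest WT library at 1.146 and its lowest KO library at 1.148. Its 4-month means were 1.08 and 1.09.

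**Figure D3:**
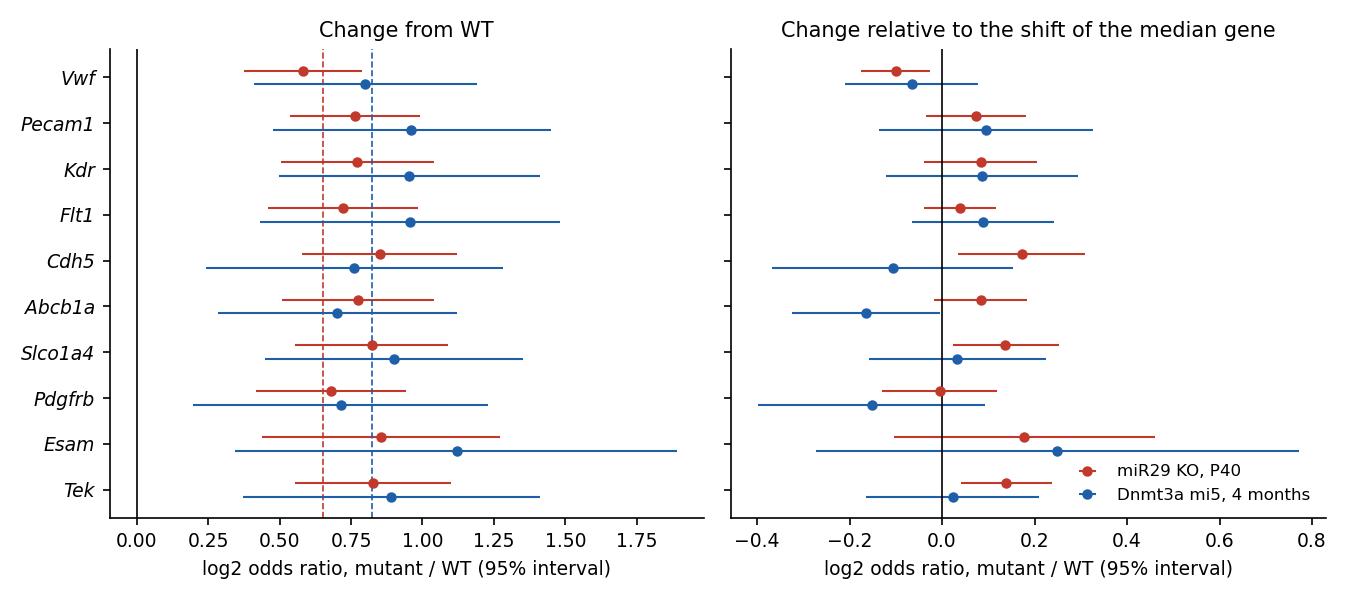
Log2 odds ratio of each gene, mutant over WT, with its 95% interval from the moderated model (left), and the same after the shift of the median gene is taken out of each library (right); red is miR29 KO against WT at P40, blue Dnmt3a mi5 against WT at 4 months, and dashed lines mark the median of all tested genes (0.65 and 0.83). All intervals on the left exclude 0, and most on the right include it.

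The rises in the 2 mutants were not told apart for any gene. The test of the difference (mi5 rise minus KO rise) called 0 of 10 genes with the quasi-binomial model, as it called 0% of all tested genes; 289 genes, none of the 10 among them, had an unadjusted p under 0.05, and limma on percent levels called 3 genes in all and none of the 10. The differences ran from -0.09 (Cdh5) to 0.26 (Esam) on the log2 scale. Their intervals are wide: that of Vwf, the narrowest, reached from -0.22 to 0.66, and that of Esam from -0.61 to 1.14. Differences of that size are therefore not excluded by these libraries.

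Between the WT groups, at P40 and at 4 months, 0 of 10 genes were called (0.131% of all tested genes higher at 4 months, 0% lower; 462 genes at an unadjusted p under 0.05, none of the 10). Log2 odds ratios ran from -0.21 (Flt1) to 0.20 (Abcb1a). Only Slco1a4 had both 4-month libraries below all 4 P40 libraries, as 12.1% of all genes did, and none of the 10 had both above, as 6.03% of all genes did. Age and library set cannot be told apart in this comparison.

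Relative to the median gene, Abcb1a was higher in the older WT mice. Its level was 1.31, 1.41, 1.41 and 1.35 times that of the median gene at P40 and 1.55 and 1.81 times at 4 months. The share of all genes whose relative levels separate in this way was not computed. Apart from the common shift the log2 odds ratio was 0.29 ± 0.07 (quasi-binomial model, adjusted p = 0.042), a call shared by 1.36% of all tested genes above the shift. The call held under 9 of the 27 other settings, and without WT replicate 2 at 4 months the value was 0.18 (adjusted p = 0.79). In mi5 the ratio was 1.48 and 1.49, and in miR29 KO between 1.40 and 1.48. This comparison was added after the data were seen.

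**Figure D4:**
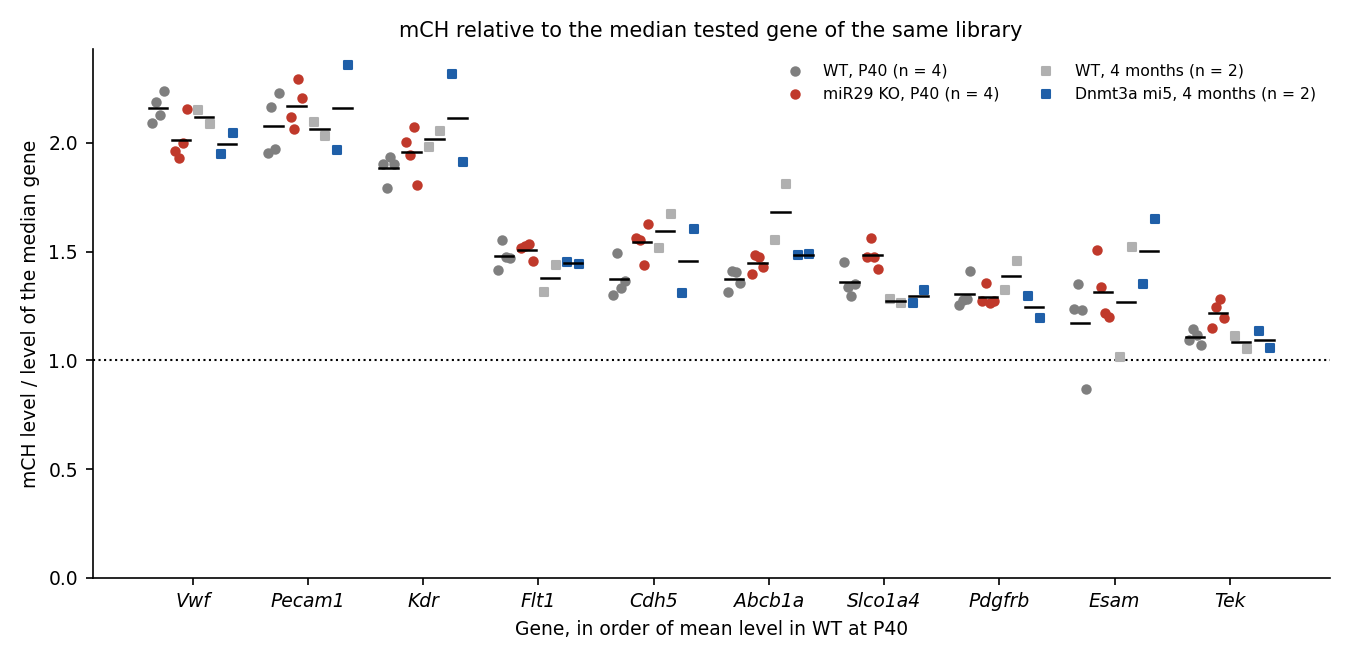
mCH level of each vascular gene divided by that of the median tested gene of the same library, 1 point per library with a bar at the group mean; the dotted line marks the median gene. The 4 groups largely overlap for each gene, with Abcb1a in WT at 4 months (1.55 and 1.81) above the other groups and Esam in 1 WT library at P40 (0.869) below the line.

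The wider pathways were read from lists drawn up around these genes, which hold the members as well. Each count below stands beside 76.5% of all tested genes called higher in miR29 KO and 58.8% in mi5, with medians of 0.65 and 0.83, and nothing particular to a list is drawn from it. Of the VEGF ligands and receptors, 8 of 10 rose in miR29 KO (median log2 odds ratio 0.71) and 7 of 10 in mi5 (0.90). Nrp2, a co-receptor for VEGF-C and semaphorins, rose from 2.88 ± 0.34% to 4.52 ± 0.58% in miR29 KO (SD, n = 4), and Nrp1, the co-receptor for VEGF-A, from 2.56% to 4.82% in mi5 (n = 2). The ligand genes Vegfb and Vegfd were not called in miR29 KO (0.58, adjusted p = 0.068, and 0.60, adjusted p = 0.059, by the same model), nor were Pgf, Vegfa and Vegfd in mi5. Vegfb had little mCH in WT at P40, at 0.596%. All 6 genes of the angiopoietin and Tie system rose in both mutants, with Ptprb (the phosphatase VE-PTP, which acts on Tie2) at 2.44% in WT and 3.95% in miR29 KO and Angpt1 (the activating Tie2 ligand) at 1.86% in WT and 3.57% in mi5. Tie1, the receptor related to Tek, had the largest p of that list, at 0.80 ± 0.16 and 1.03 ± 0.35.

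Endothelial junction genes rose in 11 of 12 cases in miR29 KO and 10 of 12 in mi5. The tight junction gene Ocln went from 1.76 ± 0.20% to 3.07 ± 0.38% in miR29 KO and from 1.48% to 3.08% in mi5. Cldn12, a claudin, was 2.15% in WT and 2.79% in miR29 KO (adjusted p = 0.068) and 2.40% and 2.49% at 4 months (adjusted p = 0.87), so no change was called. Marveld2 was also not called in mi5. Cldn5, the main claudin of the barrier, had too few calls to be tested. Apart from the common shift, Cgn (cingulin) lay above it in miR29 KO (0.29, adjusted p = 0.020) and Tjp1 (ZO-1) below it (-0.32, adjusted p = 0.021).

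Barrier transporter genes rose in 12 of 14 cases in miR29 KO and 10 of 14 in mi5. Slco2b1, an organic anion transporter, had the smallest p in miR29 KO (2.73 ± 0.38% to 4.56 ± 0.64%) and Abcc4, an efflux pump, in mi5 (2.94% to 5.31%). Slc3a2, the heavy chain shared by large amino acid transporters, was low in mCH, at 0.549 ± 0.105% in WT and 0.545 ± 0.115% in miR29 KO (adjusted p = 0.99), and was not called in mi5. Tfrc, the transferrin receptor, was not called in either mutant, and Slc38a5 and Slc7a5 were not called in mi5. For the pericyte and smooth muscle list the counts were 13 of 14 and 10 of 14. Cspg4 (NG2) was 2.22% in WT and 3.48% in miR29 KO, Rgs5 was 1.71% in WT and 3.25% in mi5, and Tagln, a smooth muscle actin-binding protein, was called in neither (adjusted p = 0.15 and 0.28). Des, Kcnj8 and Pdgfb were not called in mi5.

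Endothelial transcription factors rose in 9 of 13 cases in miR29 KO and 8 of 13 in mi5, near the shares of all genes (76.5% and 58.8%); Sox18 and Klf2 had too few calls to be tested. Ets1 had the smallest p in both, at 2.84 ± 0.33% in WT and 4.77 ± 0.59% in miR29 KO, and 2.72% and 4.78% at 4 months. Foxc1, Foxf2, Foxq1 and Sox17 were called in neither mutant, and Klf4 not in mi5. These 4 lay below the median gene: in WT at P40 Foxc1 was at 1.02%, Foxf2 at 0.383%, Foxq1 at 0.555% and Sox17 at 0.479%. Wnt and Norrin signalling genes, which act in forming the barrier, rose in 10 of 11 cases in each mutant. The exceptions were the Norrin receptor gene Fzd4 in miR29 KO (2.29% to 2.48%, adjusted p = 0.46; below the common shift at -0.54, adjusted p = 0.046) and Ndp, which encodes Norrin, in mi5 (adjusted p = 0.11). Apcdd1, an inhibitor of Wnt signalling, had the smallest p in miR29 KO (0.69 ± 0.10) and Reck, a co-receptor for Wnt7, in mi5 (1.01 ± 0.22).

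Genes for endothelial surface and secreted proteins rose in 14 of 16 cases in miR29 KO and 12 of 16 in mi5. Nos3, the endothelial nitric oxide synthase, went from 2.11 ± 0.20% to 3.43 ± 0.50% in miR29 KO. The sialomucin gene Cd34 had the smallest p in mi5 (1.59% to 3.45%, adjusted p = 0.0030), but was not called in miR29 KO (1.76% to 2.12%, adjusted p = 0.067), where it lay below the common shift (-0.39, adjusted p = 0.0096). The difference between the mutants for Cd34, 0.87 ± 0.25, had an unadjusted p of 0.0024 and did not pass (adjusted p over all tested genes = 0.998). S1pr1, a sphingosine phosphate receptor, was called in neither, and Egfl7, Icam2 and Sele were not called in mi5. None of the vascular lists had a gene called lower in either mutant.

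Outside all lists, the 3 genes whose levels relative to the median gene followed the mean of the 10 most closely over the 12 libraries were Syn3 (Pearson r = 0.95), Rnf43 (r = 0.93) and Cdh13 (r = 0.93). The libraries share depth and genotype, so these are descriptions of 12 points. Of the 10 genes, Pecam1 had 4 RefSeq transcript rows, Tek 3, and Esam and Pdgfrb 2 each. The rows of a gene held identical calls, so the choice among them did not affect the level of that gene.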

How the data were processed

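Whole cortex DNA was bisulfite-sequenced, and the deposited tables give, per RefSeq transcript, the count of methylated non-CG calls and the total. Reads were aligned with BSMAP to mm9, per the submitters' processing notes; versions, call filters and the gene window are not given in the sources used here. The totals deposited by the authors were handled like estimated counts and rounded, since 35.7 to 62.2% of them are whole and no source used here states how they were made. An unmethylated lambda spike-in was used per the labels' protocols; its conversion rate was not used here. Each table has 36672 rows; 1395 rows with a repeated identifier and 300 rows without a symbol in RefSeq were left out, and the row with most calls stood for each gene. No coordinates are given because the reference assembly differs from mm9.

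Genes with at least 500 calls in every library were fitted by quasi-binomial logistic regression on group over all 12 libraries, and dispersions were moderated with limma 3.58.1 in R 4.3.3 (trend, robust). Tests were two-sided, adjusted by Benjamini-Hochberg over all tested genes, and effects are log2 odds ratios ± SE. A second fit used an offset per library, the log odds of the median gene. The code was tested on simulated data. Ratios, intervals and permutation tests used Python 3.11.15 with scipy 1.17.1. Alternatives were other scales, call minimums, rows, background, blocks, centrings and left-out libraries.

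The 10 genes and all lists were chosen with earlier results of these data known. Named for each list were the genes with the smallest and the largest p in either mutant comparison and any called lower; genes not called were named after their values were seen. Some results for markers of other cell types are not reported here.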

Additional observations from a re-analysis of the deposited data

Results flagged for a closer look

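Each gene's level and its ratio to the median gene were checked for a library far from the others in the groups of 4, 40 checks in all, of which 2 stood out; chance alone would mark about 1 in 20. Tek in miR29 KO replicate 4 was at 1.95%, far below the group's median of 2.69% and highest value of 2.76%. The median tested gene was low in that library too, at 1.63% against 2.06 to 2.39% in the other KO libraries. As a ratio to the median gene, Tek was at 1.19 there, inside the group's range of 1.15 to 1.28. Relative to the median gene, Pdgfrb in miR29 KO replicate 2 was at 1.36, above a group median of 1.27 and a lowest value of 1.26.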

How the results depend on the processing

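The 10 rises in miR29 KO were called under every alternative tried. In Dnmt3a mi5 the count was 8 without moderation of the dispersion (Cdh5 and Esam lost). With 1 library left out in turn it ran from 4 (without WT replicate 1 at 4 months) to 10, with 7 without WT replicate 2, 9 without mi5 replicate 1 and 7 without mi5 replicate 2. Without the libraries of low Y-gene coverage it was 0; there each 4-month arm is 1 library assumed to vary like the other groups and 1 gene is called in all. Over all genes, the 11649 called higher in mi5 became 4672 and 6307 without WT replicate 1 or 2, and 7711 without mi5 replicate 1. Other settings raised it, to 14551 with only the 2 groups compared and 14566 with limma on log2(percent + 0.1). Without miR29 KO replicate 4 it was 13328, as all groups share 1 estimate of the spread. Of 540 values of single vascular genes under alternatives, 515 kept their call, 25 lost it, all in mi5, and 0 reversed. Apart from the common shift, the count in miR29 KO moved from 0 to 1 (Vwf, below) with a minimum of 2000 calls, with the 1st percentile of levels subtracted and without miR29 KO replicate 4 (left-out libraries gave 0 to 1), and to 5 (above) with centring on the mean. The all-gene calls apart from the shift, 207 above and 704 below in miR29 KO, fell to 0 and 0 with limma on log2(percent + 0.1). The 1 call between the WT groups apart from the shift (Abcb1a) became 0 in 18 settings, which include limma on each scale, minimums of 1 and 100 calls, summed rows, no moderation, only the 2 groups compared, no libraries of low Y-gene coverage and centring on the mean; with 1 library left out it was 0 to 1. The counts of the difference between mutants and of the WT comparison stayed at 0. With replicate number as a block the counts were 10, 10 and 0 for miR29 KO, mi5 and their difference. Deviations from the group mean correlated between P40 libraries of 1 number at r = -0.01, -0.04, -0.05 and 0.11. Between P40 libraries of different numbers r ran from -0.14 to 0.21. At 4 months r was -0.09 for both numbers, which is 1 value, since 2 libraries a group deviate as mirror images. Whether the numbers mark pairs cannot be decided from these values. The comparison of WT ages is not reported with the block, which is nested within age. Depth limits Esam most.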

Other observations

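Marker genes of other cortical cell types give context for the vascular genes. Their counts stand beside 76.5% of all tested genes called higher in miR29 KO and 58.8% in mi5. Astrocyte markers rose in 6 of 6 cases in both mutants, with Aldh1l1 at 2.43 ± 0.28% in WT and 4.02 ± 0.55% in miR29 KO (SD, n = 4); Slc1a2 and Gfap had the largest p, and Slc1a2 lay below the common shift in miR29 KO (-0.29, adjusted p = 0.0029 by the quasi-binomial model with limma's moderation). Microglia markers rose in 4 of 5 cases in each, with Aif1 called in neither (adjusted p = 0.28 and 0.10). Inhibitory neuron markers rose in 3 of 4 and 2 of 4 cases: Gad1 rose in both, Slc32a1 in neither, and Gad2 not in mi5. The excitatory neuron marker Slc17a7 was at 0.665 ± 0.043% in WT and 0.692 ± 0.161% in miR29 KO (adjusted p = 0.81). Camk2a lay below the common shift in miR29 KO (-0.35, adjusted p = 0.036). Sst and C1qa had too few calls to be tested. No test compared these lists with the vascular genes.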
